A study of Arabidopsis thaliana with 6 samples.

Results

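The nuclear photosystem and electron transport genes of Arabidopsis thaliana were examined in developing seeds. The set was given as 51 gene identifiers that cover light-harvesting antenna proteins, subunits of photosystem I and photosystem II, electron carriers and ATP synthase subunits. Of the 51 genes, 50 had a row among the 16967 genes of the deposited expression table, and all 50 passed the filter on low values. LHCB1.5 (AT2G34420) had no row and was not analysed here. Seeds of 2 genotypes were compared by RNA sequencing 8 days after pollination, with 3 samples each. The tested genotype was tt7-7, a mutant of TT7, which encodes flavonoid 3′-hydroxylase, an enzyme that hydroxylates the B ring of flavonoids. The other was Col-0, a standard laboratory accession and the wild type here. No treatment is named for either genotype, and RNA came from whole seeds, so embryo, endosperm and seed coat were measured together. Nothing in the labels says that the 3 samples of a genotype came from separate plants, so p-values measure the spread between these samples, which may be technical.

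In the thylakoid membranes of chloroplasts, antenna proteins that carry chlorophyll pass light energy to the reaction centres of photosystem II and photosystem I. Electrons taken from water at photosystem II pass through the cytochrome b6f complex and plastocyanin to photosystem I, and from there through ferredoxin and ferredoxin-NADP reductase (FNR) to NADPH. The proton gradient that builds up drives the chloroplast ATP synthase. Green embryos of Arabidopsis hold such chloroplasts for part of their development and lose most of the chlorophyll before the seed is dry. The reaction centre cores are encoded in the plastid genome, and the genes described here supply the nuclear-encoded partners.

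The DNA before each gene start was read from the RefSeq assembly TAIR10.1 for all 51 genes, 250 bases per gene, and searched on both strands for 4 short sequences. The G-box CACGTG, a palindrome bound by several bZIP and bHLH transcription factors, was in the window of 10 genes, or 19.6%, against 6.49% of 27443 nuclear protein-coding genes. CCAATC, a sequence found before many genes bound by GLK factors, which promote chloroplast development in Arabidopsis, was in 14 windows, or 27.5%, against 10.2% of all genes. It was in 10 of the 19 antenna genes, or 52.6%, and in 0 of 12 photosystem I genes. GATAAG, the core of the I-box of light-regulated promoters, was in 13 windows, or 25.5%, against 12.3% of all genes. TATAAA was in 23 windows, or 45.1%, against 47.3% of all genes. No match overlapped a match to another of the 4 sequences. No test was made, and a match of letters is not a binding site.

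G-box and CCAATC stood together in 5 windows, or 9.80% of the set, against 0.780% of all nuclear protein-coding genes. These 5 windows are printed because they carry both sequences and come from 5 of the functional groups described here. They are the 250 bases before LHCA4 (chr3:17495034-17495283, minus strand), LHCB2.3 (chr3:10255656-10255905, plus strand), LHCB4.1 (chr5:208616-208865, plus strand), PSBQ-2 (chr4:2673244-2673493, minus strand) and ATPD (chr4:6100464-6100713, plus strand). Each runs 5′ to 3′ on the strand of its gene, and capitals mark CACGTG and CCAATC or its reverse complement.
LHCA4: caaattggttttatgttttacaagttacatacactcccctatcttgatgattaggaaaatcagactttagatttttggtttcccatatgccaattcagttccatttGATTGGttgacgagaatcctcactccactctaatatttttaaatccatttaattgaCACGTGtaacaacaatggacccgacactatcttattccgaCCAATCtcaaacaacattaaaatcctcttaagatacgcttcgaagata
LHCB2.3: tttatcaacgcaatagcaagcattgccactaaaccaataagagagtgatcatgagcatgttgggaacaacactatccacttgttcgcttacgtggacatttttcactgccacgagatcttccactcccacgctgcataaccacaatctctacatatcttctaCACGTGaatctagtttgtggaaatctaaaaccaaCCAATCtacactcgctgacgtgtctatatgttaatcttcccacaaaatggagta
LHCB4.1: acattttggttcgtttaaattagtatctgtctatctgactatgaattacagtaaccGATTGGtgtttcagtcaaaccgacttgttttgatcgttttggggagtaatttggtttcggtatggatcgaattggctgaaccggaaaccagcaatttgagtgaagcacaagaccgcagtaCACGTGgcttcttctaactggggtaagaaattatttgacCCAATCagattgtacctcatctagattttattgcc
PSBQ-2: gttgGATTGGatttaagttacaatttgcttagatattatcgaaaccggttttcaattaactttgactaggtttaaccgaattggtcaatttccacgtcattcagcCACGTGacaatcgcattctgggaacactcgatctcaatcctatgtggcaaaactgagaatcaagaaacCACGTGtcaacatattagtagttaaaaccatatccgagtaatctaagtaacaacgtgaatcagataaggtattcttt
ATPD: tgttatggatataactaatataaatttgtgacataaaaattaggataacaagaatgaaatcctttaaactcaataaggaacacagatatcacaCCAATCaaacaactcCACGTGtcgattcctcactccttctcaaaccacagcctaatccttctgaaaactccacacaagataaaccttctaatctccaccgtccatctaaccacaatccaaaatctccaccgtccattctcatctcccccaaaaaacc

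In LHCA4 and LHCB2.3 the G-box began 88 bases before the gene start, and a CCAATC followed it, beginning 48 bases before the start in LHCA4 and 54 in LHCB2.3. LHCB4.1 had the same order, with the G-box beginning at 74 and the nearer CCAATC at 35 bases before the start. In PSBQ-2 and ATPD the order was the other way round, with the CCAATC at 246 and 157 bases before the start and the G-boxes nearer to it. The median log2 fold change of the 13 measured genes with CCAATC was -1.21, and that of the 37 without it was -1.06. Of the 14 genes with CCAATC 10 were antenna genes, a group with a median of -1.30, and medians were not compared within groups. For the G-box the medians were -1.04 for 10 genes with it and -1.14 for 40 without it.

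Depth, recovered from the steps of the RPKM values (reads scaled by transcript length and library size), was 15577456 to 20300393 reads in the tt7-7 libraries and 13677094 to 20547689 reads in the Col-0 libraries. TT7 itself was at 86.0, 97.4 and 103 RPKM in tt7-7 and at 499, 272 and 240 RPKM in Col-0. The photosystem and electron transport genes were measured on 374 to 230662 reads per gene and library, apart from LHCB1.4, which had as few as 164. Over all genes the spread between libraries of a genotype exceeded counting error. For single genes with closely spaced values it may not have, such as LHCB4.3 in tt7-7 and FNR1 and PSBQ-1 in Col-0. Intervals of counting error are not given, since the reads carry no molecular identifiers named in the sources used here. Over all 16663 tested genes the median log2 fold change, tt7-7 minus Col-0 on the log2(RPKM + 1) scale, was 0.44. The values below are on the deposited scale unless a different one is named.

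Most transcripts of this set were lower in tt7-7 seeds, in each complex from the antennae to the ATP synthase, but LHCB1.4, FNR1, FNR2 and ATPG did not pass the test. By limma, with p-values adjusted over all tested genes and a threshold of 0.05, 46 of the 50 genes were lower in tt7-7 and 0 were higher. Over all tested genes 8.47% were called lower and 51.1% higher. The log2 fold changes ran from -1.62 for LHCB1.2 to -0.34 for FNR1, with a median of -1.07, and all 50 were below 0, as were 24.2% of all tested genes. For 46 of the 50 genes every tt7-7 value lay below every Col-0 value, a separation found for 9.97% of all tested genes. A call with at least a 2-fold lower level was made for 29 of the 50 genes and for 2.42% of all tested genes.

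The set made up 2.71%, 3.03% and 3.71% of the reads in the tt7-7 libraries, against 6.40%, 7.39% and 7.72% in the Col-0 libraries. Summed RPKM over the 50 genes was 27083 ± 4438 in tt7-7 and 61431 ± 5717 in Col-0 (SD, n = 3 each). Because each sample was a mixture of seed tissues, fewer green cells and less of these transcripts per cell cannot be told apart. Among the 100 genes with the highest mean RPKM of each genotype, 23 belonged to this set in tt7-7 and 32 in Col-0. The order of the levels differed little between the genotypes: the Spearman correlation of the mean RPKM in tt7-7 with that in Col-0 was 0.968 over the 50 genes, which share their libraries. Over the same 50 genes the Spearman correlation of the log2 fold change with mean RPKM was -0.39.

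**Figure D1:**
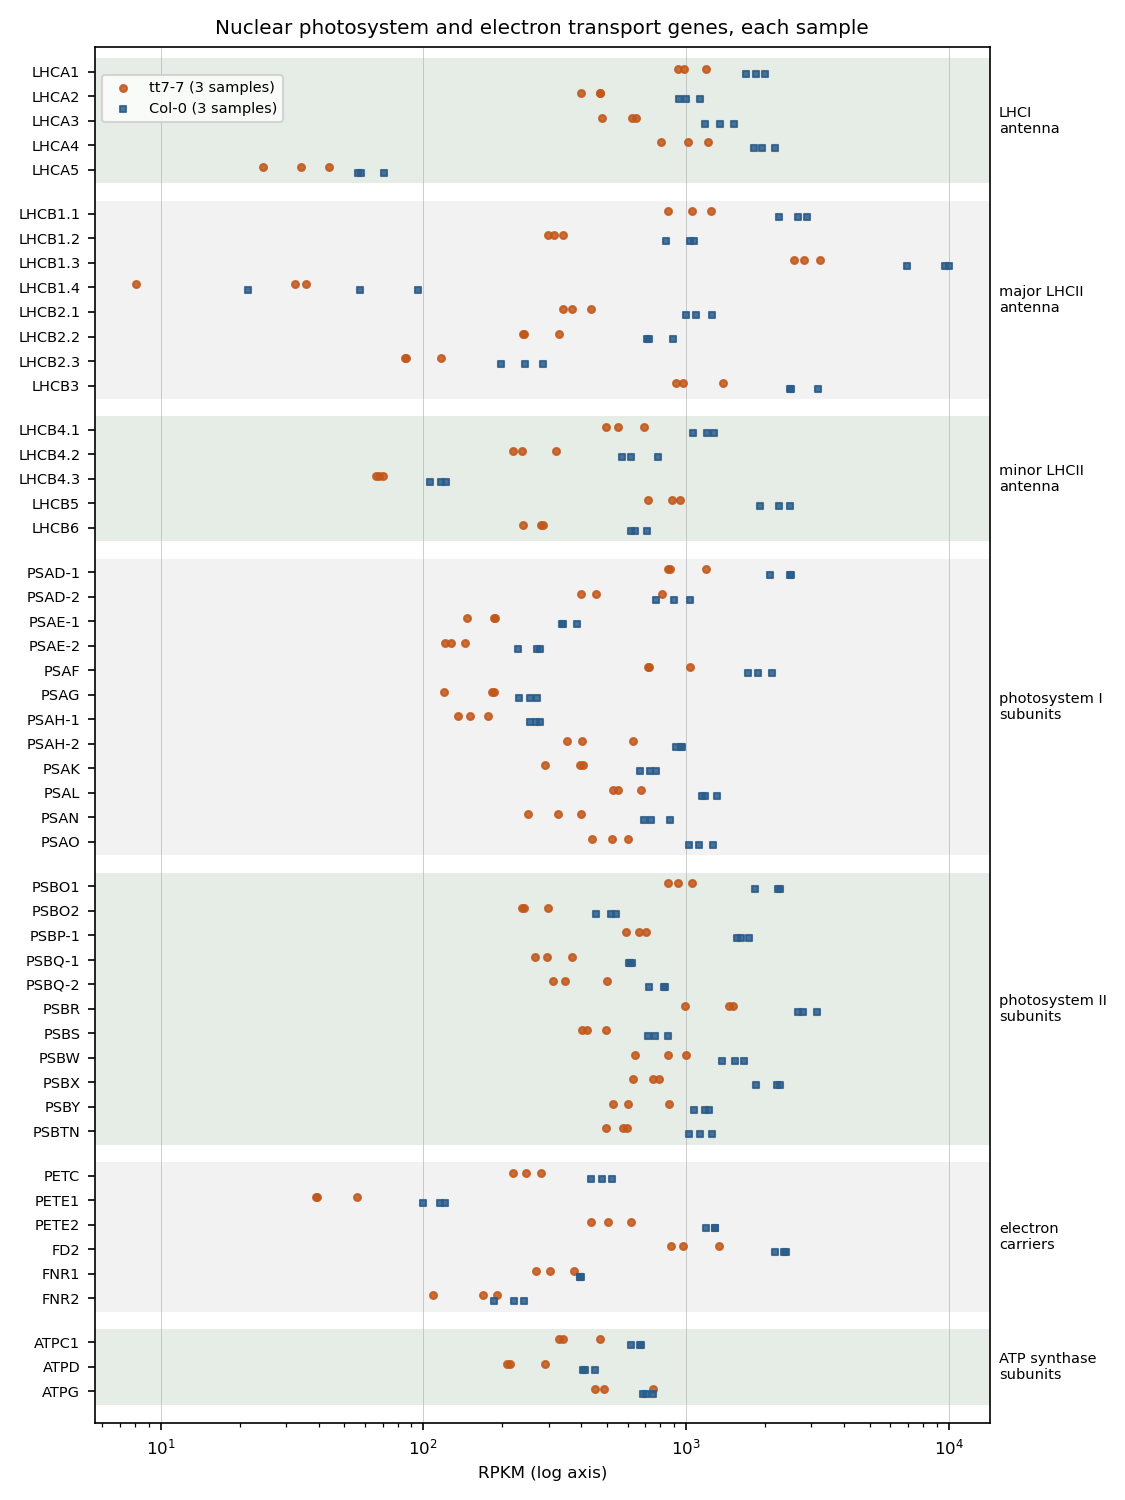
RPKM of each gene in each sample on a log axis, with tt7-7 as circles above Col-0 as squares in each row and genes grouped by complex. In 46 of the 50 rows all circles lie left of all squares, and the groups overlap for LHCB1.4, PSAD-2, FNR2 and ATPG.

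The major antenna of photosystem II, LHCII, is built from LHCB1, LHCB2 and LHCB3 proteins, and its genes held the highest level and the lowest fold change of the set. Of its 8 measured genes 7 were called lower, with a median log2 fold change of -1.43 and a range of -1.62 to -1.17. LHCB1.3 (AT1G29930), the most abundant transcript of the set, had 2570, 2821 and 3245 RPKM in tt7-7, against 6930, 10054 and 9703 RPKM in Col-0. Every tt7-7 sample was far below every Col-0 sample, at a mean of 32.4% of the Col-0 level, with a log2 fold change of -1.61 (SE 0.273, limma adjusted p 0.00103). LHCB1.2 (AT1G29910) had 315, 300 and 341 RPKM in tt7-7, against 841, 1038 and 1070 RPKM in Col-0. Its 3 tt7-7 values lay close together, and its log2 fold change of -1.62 (SE 0.172, limma adjusted p 0.000140) was the lowest of the set.

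LHCB2.1 (AT2G05100) had 341, 368 and 434 RPKM in tt7-7, against 998, 1096 and 1259 RPKM in Col-0, a log2 fold change of -1.55 (SE 0.182, limma adjusted p 0.000196). LHCB2.2 (AT2G05070) had 242, 240 and 329 RPKM in tt7-7, against 712, 723 and 894 RPKM in Col-0, a log2 fold change of -1.53 (SE 0.190, limma adjusted p 0.000246). LHCB2 proteins are the main targets of the kinase STN7, which moves antenna between the photosystems. Neither gene's groups overlapped. LHCB1.4 (AT2G34430), the gene with the lowest level of the set, had 8.02, 32.5 and 35.7 RPKM in tt7-7, against 21.5, 57.5 and 95.2 RPKM in Col-0. Replicate 1 was low in both genotypes and the groups overlapped, so its log2 fold change of -1.17 (SE 0.607) did not pass (limma adjusted p 0.123). LHCB1.1, LHCB2.3 and LHCB3 were called lower with log2 fold changes of -1.32, -1.33 and -1.34.

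The LHCB1 genes on chromosome 1 are near-identical copies, so their reads can be divided between them. LHCB1.1 (AT1G29920), LHCB1.2 and LHCB1.3 lie within chr1:10472280-10479114 on TAIR10.1, and their coding sequences of 804 bases are 95.6% to 96.4% identical. The stretch where they differ most, coding bases 145 to 264, is printed to show how little separates them. Capitals mark the 11 positions that differ among the copies, of 47 in the whole coding sequence.
LHCB1.1: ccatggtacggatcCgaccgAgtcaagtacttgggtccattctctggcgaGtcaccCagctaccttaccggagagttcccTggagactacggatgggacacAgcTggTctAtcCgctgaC
LHCB1.2: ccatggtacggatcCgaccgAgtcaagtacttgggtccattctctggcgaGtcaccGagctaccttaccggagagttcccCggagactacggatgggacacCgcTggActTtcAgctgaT
LHCB1.3: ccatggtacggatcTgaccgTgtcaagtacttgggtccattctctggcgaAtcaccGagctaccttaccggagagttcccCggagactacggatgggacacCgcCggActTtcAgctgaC

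Of the 50-base windows of the LHCB1.1, LHCB1.2 and LHCB1.3 transcripts, 20.5%, 10.6% and 22% also occurred in transcripts of other loci, and for LHCB1.5 the share was 100%. When the RPKM values of the 3 copies were summed, the log2 fold change was -1.55 (limma adjusted p 0.00170). LHCB2.1 and LHCB2.2 shared 22.7% and 28.2% of their windows with each other, and their sum changed by -1.54 (limma adjusted p 0.000296). The values of single copies are uncertain. The sums depend less on how reads were divided among the copies summed, but RPKM is scaled by length and the copies differ in length. Windows shared with loci outside a sum also remain.

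The minor antenna proteins LHCB4, LHCB5 and LHCB6 link the major antenna to the photosystem II core. All 5 genes were called lower, with a median log2 fold change of -1.29. LHCB5 (AT4G10340) was the highest and the most reduced of them, with 720, 882 and 948 RPKM in tt7-7, against 1921, 2252 and 2494 RPKM in Col-0, a log2 fold change of -1.39 (SE 0.209, limma adjusted p 0.000591). LHCB6 was at -1.29. The 3 LHCB4 copies had log2 fold changes of -1.35 to -0.75, and none of their groups overlapped. LHCB4.1 (AT5G01530) had 495, 550 and 695 RPKM in tt7-7, against 1067, 1281 and 1204 RPKM in Col-0, a log2 fold change of -1.04 (SE 0.196, limma adjusted p 0.00177). LHCB4.2 (AT3G08940) had 220, 238 and 320 RPKM in tt7-7, against 572, 620 and 784 RPKM in Col-0, a log2 fold change of -1.35 (SE 0.202, limma adjusted p 0.000571). LHCB4.3 (AT2G40100), also known as LHCB8, had 67.7, 69.9 and 66.1 RPKM in tt7-7, against 106, 122 and 116 RPKM in Col-0, a log2 fold change of -0.75 (SE 0.127, limma adjusted p 0.00104). It was the least changed of the LHCB genes and had the tightest tt7-7 values.

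The LHCA proteins form LHCI, the antenna of photosystem I. All 5 genes were called lower, with a median log2 fold change of -0.99. LHCA4 (AT3G47470) had 800, 1018 and 1208 RPKM in tt7-7, against 1817, 1947 and 2185 RPKM in Col-0, a log2 fold change of -0.99 (SE 0.220, limma adjusted p 0.00417). LHCA3 (AT1G61520) had 477, 626 and 643 RPKM in tt7-7, against 1177, 1342 and 1520 RPKM in Col-0, a log2 fold change of -1.21 (SE 0.201, limma adjusted p 0.000927). LHCA1 (AT3G54890) had 933, 983 and 1192 RPKM in tt7-7, against 1690, 1841 and 1992 RPKM in Col-0, a log2 fold change of -0.83 (SE 0.199, limma adjusted p 0.00603). All 3 were separated without overlap, and LHCA1, the partner of LHCA4 in an antenna dimer, was the least reduced. LHCA2 was at -1.19. LHCA5, which helps to attach the plastid NDH complex to photosystem I, was at -0.87 with a mean of 34.1 ± 9.54 RPKM in tt7-7 and 61.8 ± 8.00 RPKM in Col-0 (SD, n = 3 each).

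All 12 photosystem I genes were called lower, with a median log2 fold change of -1.05. PSAD-1 (AT4G02770) and PSAD-2 (AT1G03130) encode the stromal subunit that docks ferredoxin. PSAD-1 had 866, 851 and 1188 RPKM in tt7-7, against 2087, 2495 and 2508 RPKM in Col-0, a log2 fold change of -1.30 (SE 0.219, limma adjusted p 0.000996). PSAD-2 had 399, 454 and 808 RPKM in tt7-7, against 772, 904 and 1038 RPKM in Col-0, a log2 fold change of -0.77 (SE 0.273, limma adjusted p 0.0358). Replicate 3 of tt7-7 reached into the Col-0 range for PSAD-2. The PSAD-2 call was lost with the length trend removed and under quantile normalization. It was also lost when Col-0 replicate 2, Col-0 replicate 3, tt7-7 replicate 1 or tt7-7 replicate 2 was left out. The log2 fold changes without these samples were -0.76, -0.66, -0.57 and -0.66, in that order.

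PSAE, another stromal subunit at the ferredoxin site, and PSAH, which lies where LHCII docks during state transitions, are each encoded by a pair of genes. PSAE-1 (AT4G28750) had 147, 188 and 185 RPKM in tt7-7, against 338, 341 and 386 RPKM in Col-0, and PSAE-2 (AT2G20260) had 128, 144 and 121 RPKM in tt7-7, against 228, 279 and 271 RPKM in Col-0. Their log2 fold changes of -1.04 and -0.98 were close (SE 0.159 and 0.150, limma adjusted p 0.000638 and 0.000640). PSAH-1 (AT3G16140) had 136, 150 and 176 RPKM in tt7-7, against 255, 269 and 278 RPKM in Col-0. PSAH-2 (AT1G52230) had 353, 401 and 631 RPKM in tt7-7, against 913, 964 and 957 RPKM in Col-0. Both were separated without overlap, at log2 fold changes of -0.80 and -1.08 (SE 0.151 and 0.230, limma adjusted p 0.00180 and 0.00340).

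PSAG (AT1G55670), a membrane subunit on the LHCI side, was the least changed photosystem I gene, with 120, 185 and 183 RPKM in tt7-7, against 232, 271 and 255 RPKM in Col-0. Its log2 fold change of -0.66 (SE 0.193, limma adjusted p 0.0161) was lost as a call when tt7-7 replicate 1 was left out, at -0.45. The call was also lost with the length trend removed and under quantile normalization. PSAG shared 58.8% of its 50-base windows with AT1G55673, PSAH-1 49.2% with AT3G16130, PSAE-1 29.1% with AT4G28755 and PSAH-2 19.1% with AT1G52240. Of the major antenna genes, LHCB2.3 shared 38.6% with AT3G27700 and LHCB3 11.5% with AT5G54280. These loci overlap or neighbour them, and the strand setting of the counting is not given in the sources used here, so part of their reads may belong to the other locus. PSAF, PSAK, PSAL, PSAN and PSAO were called lower at -1.25 to -1.0.

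All 11 photosystem II genes were called lower, with a median log2 fold change of -1.04. PSBR (AT1G79040), which helps to assemble the oxygen-evolving complex, had the highest level, with 994, 1457 and 1512 RPKM in tt7-7, against 2660, 3151 and 2797 RPKM in Col-0, a log2 fold change of -1.14 (SE 0.237, limma adjusted p 0.00296). PSBX (AT2G06520), a small membrane subunit, had 629, 751 and 789 RPKM in tt7-7, against 1844, 2279 and 2226 RPKM in Col-0. At -1.55 (SE 0.199, limma adjusted p 0.000276) it was the lowest of the 11, with all tt7-7 values below all Col-0 values. PSBS (AT1G44575), needed for the rapid dissipation of excess light energy, had 420, 402 and 495 RPKM in tt7-7, against 720, 855 and 765 RPKM in Col-0. It was the least changed of the 11 at -0.83 (SE 0.172, limma adjusted p 0.00286).

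The extrinsic proteins PSBO, PSBP and PSBQ shield the manganese cluster that splits water. PSBO1 (AT5G66570) had 852, 936 and 1058 RPKM in tt7-7, against 1839, 2236 and 2271 RPKM in Col-0, a log2 fold change of -1.16 (SE 0.202, limma adjusted p 0.00120). PSBO2 (AT3G50820) had 238, 243 and 299 RPKM in tt7-7, against 456, 520 and 544 RPKM in Col-0, a log2 fold change of -0.96 (SE 0.166, limma adjusted p 0.00111). PSBP-1 was at -1.33. PSBQ-1 (AT4G21280) had 267, 296 and 368 RPKM in tt7-7, against 610, 609 and 624 RPKM in Col-0, and PSBQ-2 (AT4G05180) had 312, 347 and 503 RPKM in tt7-7, against 721, 829 and 826 RPKM in Col-0. The PSBQ genes changed by -1.0 and -1.06 (SE 0.172 and 0.210, limma adjusted p 0.00112 and 0.00227), and the Col-0 values of PSBQ-1 were almost equal. PSBW, PSBY and PSBTN, small subunits of the complex, were at -0.89, -0.84 and -1.04.

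Among the electron carriers, the Rieske, plastocyanin and ferredoxin genes were lower, while both FNR genes fell short of the threshold. PETE1 (AT1G76100) and PETE2 (AT1G20340) encode plastocyanin, the copper protein that carries electrons to photosystem I. PETE1 had 39.3, 38.9 and 56.1 RPKM in tt7-7, against 100, 116 and 121 RPKM in Col-0, a log2 fold change of -1.33 (SE 0.172, limma adjusted p 0.000293). PETE2 had 437, 504 and 616 RPKM in tt7-7, against 1290, 1285 and 1193 RPKM in Col-0, a log2 fold change of -1.29 (SE 0.190, limma adjusted p 0.000529). Both were far apart between the genotypes. PETC, the Rieske protein of cytochrome b6f, was at -0.95. FD2 (AT1G60950), the main leaf ferredoxin, had 973, 877 and 1331 RPKM in tt7-7, against 2180, 2407 and 2357 RPKM in Col-0, a log2 fold change of -1.15 (SE 0.222, limma adjusted p 0.00203).

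FNR1 (AT5G66190) had 268, 302 and 375 RPKM in tt7-7, against 397, 395 and 394 RPKM in Col-0. The groups did not overlap, since the Col-0 values were nearly equal, but the log2 fold change of -0.34 (SE 0.169) did not pass (limma adjusted p 0.110). FNR2 (AT1G20020) had 109, 169 and 190 RPKM in tt7-7, against 186, 242 and 222 RPKM in Col-0, with overlap and a log2 fold change of -0.50 (SE 0.220, limma adjusted p 0.0761). Both FNR genes were called lower under median-ratio scaling, at -0.86 and -1.02, and without tt7-7 replicate 3, at -0.47 and -0.66.

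Of the nuclear ATP synthase genes, ATPC1 and ATPD encode the γ and δ subunits and ATPG a peripheral stalk subunit of the membrane part. ATPD (AT4G09650) had 214, 209 and 290 RPKM in tt7-7, against 407, 452 and 414 RPKM in Col-0, a log2 fold change of -0.85 (SE 0.174, limma adjusted p 0.00275). ATPC1 was called lower at -0.80. ATPG (AT4G32260) had 489, 449 and 748 RPKM in tt7-7, against 684, 702 and 750 RPKM in Col-0. Its tt7-7 replicate 3 was as high as Col-0, and the log2 fold change of -0.38 (SE 0.218) did not pass (limma adjusted p 0.162). Without tt7-7 replicate 3 it was called lower at -0.60. It was also called lower under median-ratio scaling, at -0.90, and with library size counted without the 100 highest genes, at -0.60. Under quantile normalization it was at 0.16, the one value above 0 that any of the 50 genes took under any of 18 other settings.

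**Figure D2:**
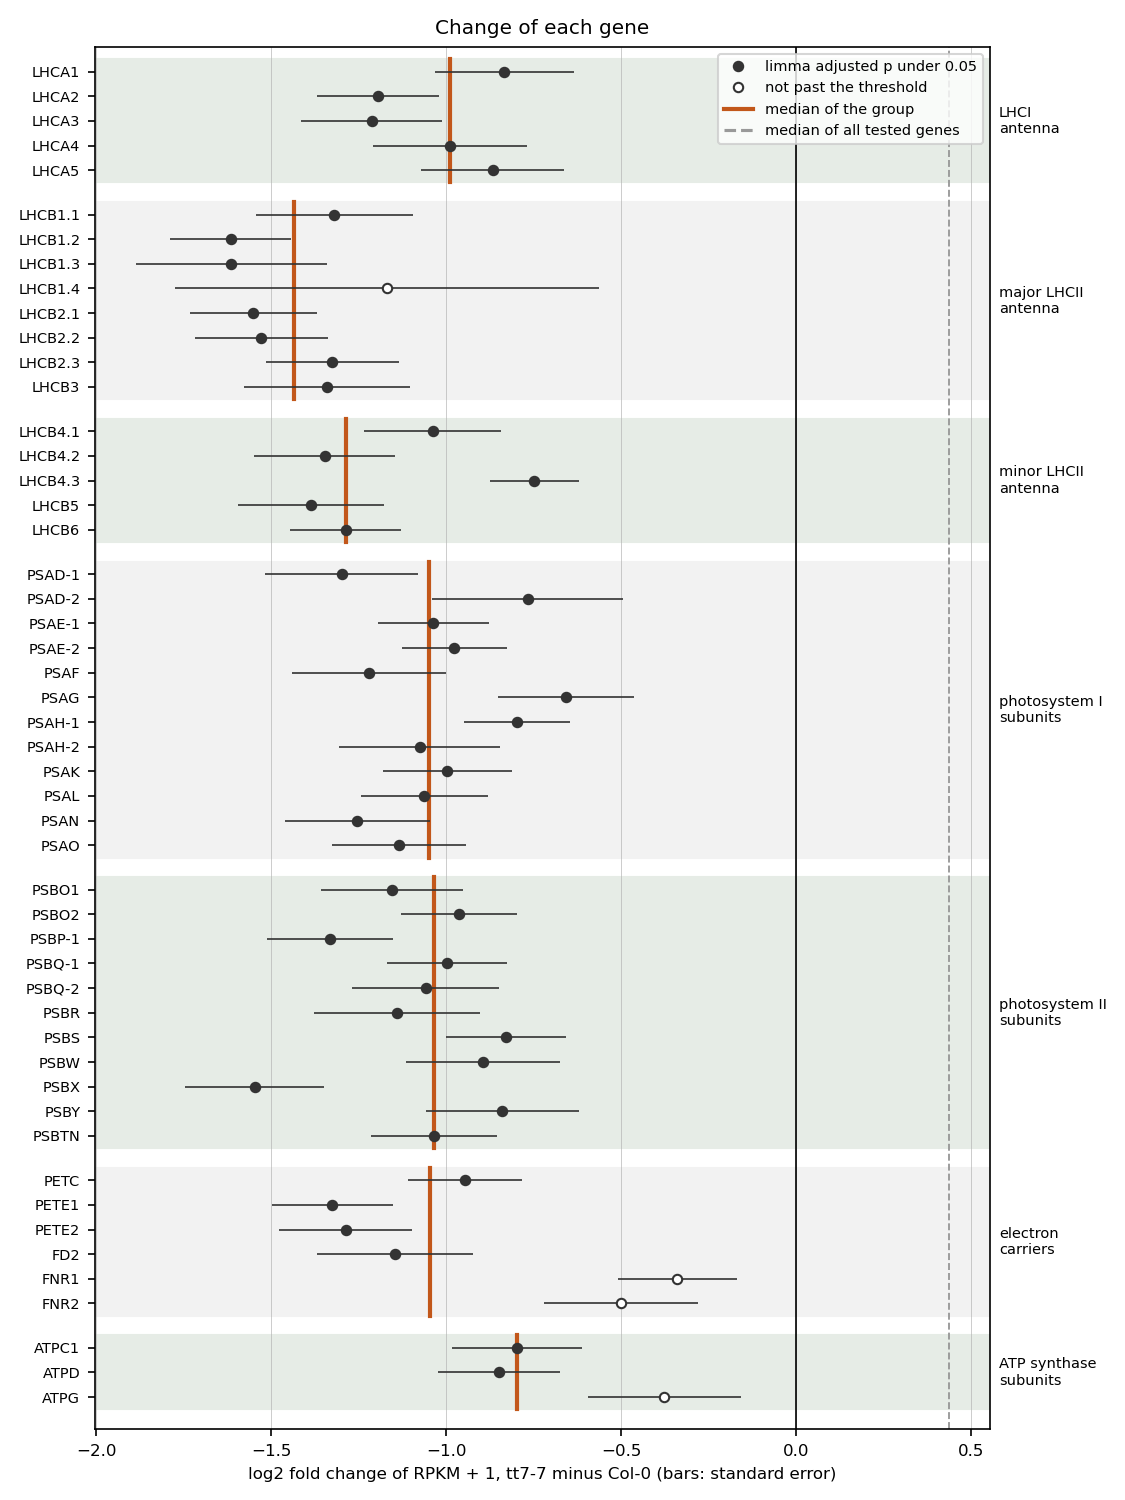
Log2 fold change of each gene (tt7-7 minus Col-0, log2 of RPKM + 1) with its standard error, grouped by complex, where filled points passed a limma adjusted p of 0.05 and open points did not, vertical bars are group medians and the dashed line is the median of all tested genes. The major LHCII genes have the lowest median, -1.43, the ATP synthase genes the highest, -0.80, and all 50 points lie below 0 on this scale.

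Set side by side, the antenna genes together had a median log2 fold change of -1.30 and 17 of 18 were called lower. The complex medians were -1.43 for major LHCII, -1.29 for minor LHCII, -1.05 for photosystem I, -1.05 for the carriers, -1.04 for photosystem II, -0.99 for LHCI and -0.80 for the ATP synthase. The ranges of the groups overlapped, except that major LHCII (-1.62 to -1.17) lay wholly below the ATP synthase (-0.85 to -0.38). No test between groups of genes was made. Shares of the set's summed RPKM within a sample do not depend on the scaling between samples. Major LHCII made up 22.3% to 23.0% of the set in tt7-7, against 26.4% to 29.4% in Col-0. With LHCB1.3 taken out of that sum, the share was 13.1% to 13.5% in tt7-7 and 15.6% to 17.2% in Col-0, so the groups stayed apart without the most abundant gene.

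The ATP synthase genes made up more of the set in tt7-7, at 3.82% to 4.72%, than in Col-0, at 2.78% to 3.1%. LHCI took 11.1% to 12% of the set in tt7-7 and 9.77% to 10.5% in Col-0. The photosystem II genes took 25.6% to 27.0% in tt7-7 and 23.8% to 25.5% in Col-0, groups that came close to each other. Minor LHCII took 7.25% to 7.73% in tt7-7 and 7.76% to 8.05% in Col-0, and photosystem I took 18.8% to 20.05% in tt7-7 and 17.4% to 18.6% in Col-0, both with narrow gaps between the genotypes. For the carriers the shares overlapped, at 8.18% to 8.93% in tt7-7 and 7.30% to 8.34% in Col-0. Since shares add up to a whole, a lower share of one group goes with higher shares of others.

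The balance between paralogs, measured within each sample as the log2 ratio of RPKM + 1, was compared for 10 pairs. The ratio of PSAD-1 to PSAD-2 was 2.17, 1.87 and 1.47 in tt7-7, against 2.70, 2.76 and 2.42 in Col-0, a difference of -0.53 on the log2 scale. For PSBO1 to PSBO2 it was 3.57, 3.85 and 3.53 in tt7-7, against 4.03, 4.29 and 4.17 in Col-0, a difference of -0.19. For LHCB4.1 to LHCB4.2 it was 2.25, 2.31 and 2.17 in tt7-7, against 1.86, 2.06 and 1.53 in Col-0, a difference of 0.31. In these 3 pairs the genotypes did not overlap, and a two-sided exact permutation test gave p = 0.1, the lowest value that 3 samples against 3 allow, or 0.333 after Benjamini-Hochberg adjustment over the 10 pairs. In the other 7 pairs the genotypes overlapped, with differences of -0.059 for PSAE, 0.28 for PSAH, 0.062 for PSBQ, -0.023 for LHCB2.1 to LHCB2.2, 0.29 for LHCB4.3 to LHCB4.1, -0.038 for PETE and 0.16 for FNR. No pair could pass 0.05 in this design, and the PSBO difference was 0.25 under quantile normalization.

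**Figure D3:**
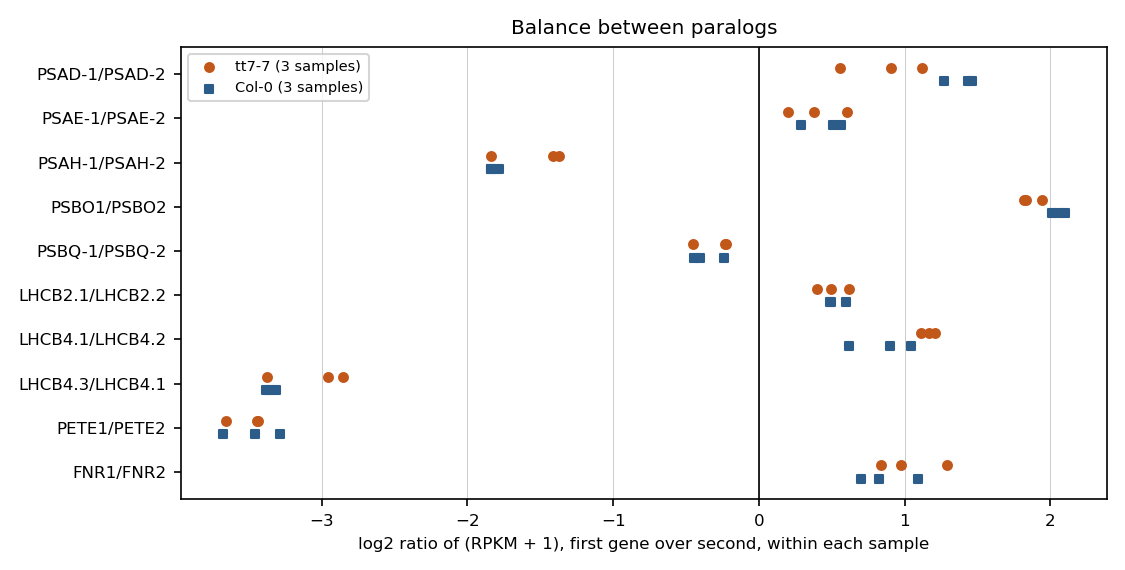
Log2 ratio of RPKM + 1 between the paralogs of each pair within each sample, tt7-7 as circles above Col-0 as squares. The genotypes are apart for PSAD-1/PSAD-2, PSBO1/PSBO2 and LHCB4.1/LHCB4.2 and overlap for the other 7 pairs.

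The spread between samples was wider in tt7-7, where the median coefficient of variation over the 50 genes was 17.6%, than in Col-0, where it was 9.47%. The samples differed in one direction across much of the set. In tt7-7, replicate 3 was the highest for 43 genes and replicate 1 the lowest for 38. In Col-0, replicate 3 was the highest for 32 genes and replicate 1 the lowest for 41. The median log2 fold change of the set was -1.23 without tt7-7 replicate 3 and -0.95 without tt7-7 replicate 1, and lay between these when any other sample was left out.

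In 5 lists of 69 other nuclear genes around the chain, 65 were tested. Of these 28 were called lower and 6 higher, where 8.47% of all tested genes were called lower and 51.1% higher, and their median log2 fold change was -0.39 beside 0.44 over all genes. The 12 tested further photosystem and carrier genes had 8 lower and 2 higher, with a median of -0.48. FD1, another photosynthetic ferredoxin, was lower at -1.15, and PSB27, a photosystem II repair factor, at -1.02 (limma adjusted p 0.000688 and 0.000848). PGRL1B, of cyclic electron flow, and PSBP-2 were higher at 0.78 and 0.88 (limma adjusted p 0.00166 and 0.00187). Neither was called under quantile normalization, at 0.35 and 0.30. PSBP-2 was at a low level, with 4.37 to 5.76 RPKM in tt7-7 and 1.69 to 2.51 RPKM in Col-0. It was in the deposited table through tt7-7 only, so the filter favoured a higher value in tt7-7. Of 16 tested nuclear subunits of the plastid NDH complex, which returns electrons from ferredoxin to plastoquinone, 8 were lower and 0 higher, with a median of -0.50. PNSL3, PNSB1, NDHN and PNSB5 were at -0.55, -0.85, -0.57 and -0.59.

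Among 22 assembly and import factors 6 were lower and 4 higher, with a median of -0.11. CCB3, which attaches a haem to cytochrome b6, was the lowest at -1.41 (limma adjusted p 0.000339). The import pathway that inserts antenna proteins into the thylakoid had calls in both directions. CPSRP43, the subunit of the chloroplast signal recognition particle that binds antenna proteins, had 31.8, 37.5 and 43.8 RPKM in tt7-7, against 60.8, 70.4 and 60.9 RPKM in Col-0, a log2 fold change of -0.76 (limma adjusted p 0.00244). Its partner CPSRP54 had 44.5, 49.8 and 56.2 RPKM in tt7-7, against 32.4, 33.3 and 30.6 RPKM in Col-0, and the receptor CPFTSY had 16.3, 16.3 and 19.5 RPKM in tt7-7, against 10.1, 9.96 and 9.96 RPKM in Col-0. These were higher at 0.62 and 0.73 (limma adjusted p 0.00348 and 0.00126), relative to the median of 0.44 over all genes, and neither was called under median-ratio scaling, at 0.11 and 0.25.

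Of 11 antenna kinases, phosphatases and stress-induced relatives of the antenna proteins, 6 were lower and 0 higher, with a median of -0.53. OHP1, OHP2, SEP1 and ELIP2, all small antenna relatives, were at -0.84, -0.58, -0.69 and -0.68. The 4 tested further plastid ferredoxins and reductases, FD3, FDC2, RFNR1 and RFNR2, had 0 calls in either direction by limma. Their log2 fold changes were -0.32 to 0.35, with a median of -0.0075. The counts of 0 in the set and in these lists were also 0 at an unadjusted p under 0.05 and with limma voom on the recovered reads, but those of the lists changed under other settings. Of the 4 ferredoxin and reductase genes 2 were called lower under median-ratio scaling and with scaling outside the 100 highest genes. Under quantile normalization and with the GC trend removed 1 was called lower. With the replicate block 1 was called higher, and without Col-0 replicate 1 there was 1 call in each direction. The NDH list and the kinase list each had 1 gene called higher with the length trend removed and 1 without tt7-7 replicate 1. Lower calls in the NDH list numbered 1 with the length trend removed and 15 under median-ratio scaling.

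The plastid-encoded partners of these complexes were all lower, 17 of 17, where 8.47% of all tested genes were called lower. Their median log2 fold change was -4.60. For psaA, psaB, psaC, petD, atpA and atpF not every tt7-7 sample reached 2 RPKM. These genes were in the deposited table through Col-0 only, so its filter favoured a lower value in tt7-7. Reads were few as well, at 6, 9 and 6 for psaC in tt7-7. The cytochrome b6 gene petB had 2.18, 3.37 and 3.19 RPKM in tt7-7, against 71.6, 286 and 108 RPKM in Col-0, a log2 fold change of -5.08 (limma adjusted p 8.72e-05). The gene psbE, for a cytochrome subunit of photosystem II, was at -4.95, atpA at -4.82 and psaB at -5.53 (limma adjusted p 8.72e-05, 8.99e-05 and 9.18e-05). The least changed, atpE and atpB, named after their values were seen, were at -0.94 and -1.40. The Col-0 values of petB, psbE, atpA and psaB were highest in replicate 2, which was the highest Col-0 sample for 16 of the 50 nuclear genes. How plastid transcripts, which mostly lack long poly(A) tails, were captured in the libraries is not given in the sources used here.

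**Figure D4:**
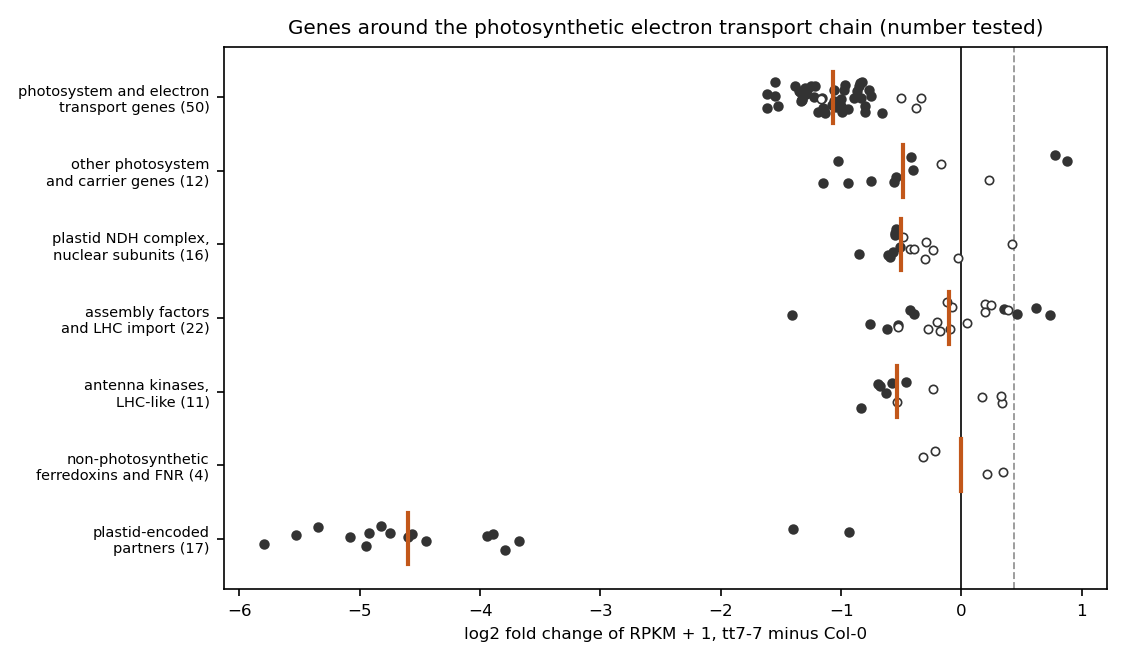
Log2 fold change of each gene (tt7-7 minus Col-0, log2 of RPKM + 1) in the set and in 6 further lists, where filled points passed a limma adjusted p of 0.05, open points did not, orange bars are list medians and the dashed line is the median of all tested genes. The medians are -1.07 for the set, between -0.53 and -0.0075 for the other nuclear lists and -4.60 for the plastid-encoded genes. The list labelled non-photosynthetic ferredoxins and FNR holds FD3, FDC2, RFNR1 and RFNR2.

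Markers of seed tissues were read in the same libraries. All 9 storage protein and oleosin genes of the maturing embryo were called lower and took 0.391%, 0.0883% and 0.597% of the reads in tt7-7, against 1.96%, 4.16% and 13.5% in Col-0. The share of the photosystem and electron transport set was 2.71%, 3.03% and 3.71% in the same tt7-7 samples, against 6.40%, 7.39% and 7.72% in the Col-0 samples. Within Col-0 the storage share and the share of the set ranked the samples in the same order, and in tt7-7 replicate 3 was highest for both, while the lowest sample was replicate 2 for storage and replicate 1 for the set. Of 7 seed coat markers 2 were called higher, BAN and TT12, with a summed level of 1319 to 1688 RPKM in tt7-7 and 776 to 1197 RPKM in Col-0, and under median-ratio scaling 2 were called lower and 2 higher. Of 7 endosperm markers 4 were tested, and 2 were called higher, FWA and FIS2, both at low levels. FWA was at 5.79 to 12.4 RPKM in tt7-7 and 1.60 to 5.16 RPKM in Col-0. FIS2 was at 3.55 to 6.17 RPKM in tt7-7 and 0.77 to 2.06 RPKM in Col-0. Both were in the deposited table through tt7-7 only. The other tested markers, EPR1 and ZOU, were not called, at 0.15 and 0.55. EPR1 had the highest level of the list, and its groups overlapped. The silique wall markers FUL and IND summed to 20.6 to 30.9 RPKM in tt7-7 and 19.4 to 23.9 RPKM in Col-0, and IND was called higher. On the deposited scale, these counts of calls stand beside 8.47% of all tested genes called lower and 51.1% called higher. Under median-ratio scaling the shares were 27.6% lower and 26.3% higher. No tested marker was listed at 0 in any sample. The part of tissue make-up or embryo stage in the lower photosystem transcripts was not tested.

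The size of the change depended on how samples were scaled, while the direction did so for ATPG alone. Scaling each sample by the median ratio to a common reference moved the median of all tested genes to -0.03 and that of the set to -1.59, with 49 genes called lower, against 27.6% of all tested genes. When library size was counted without the 100 highest genes, the median was -1.30 and 49 genes were called lower, against 14.9% of all tested genes. Quantile normalization gave the smallest change, with a median of -0.60 and 29 genes called lower, against 21.5% of all tested genes. The calls lost there were LHCA1, LHCA4, LHCB1.1, LHCB1.3, LHCB3, PSAD-1, PSAD-2, PSAF, PSAG, PSBO1, PSBR, PSBS, PSBTN, PSBW, PSBY, FD2 and ATPC1. The transcripts of the set were shorter than average, with a median length of 1203.5 bases against 1717 over tested nuclear genes. With each sample's trend on length removed, the median was -0.80 and 44 genes were called lower, against 6.85% of all tested genes. The 46 genes called lower on the deposited scale included 29 that were called lower in all 18 other settings.

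**Figure D5:**
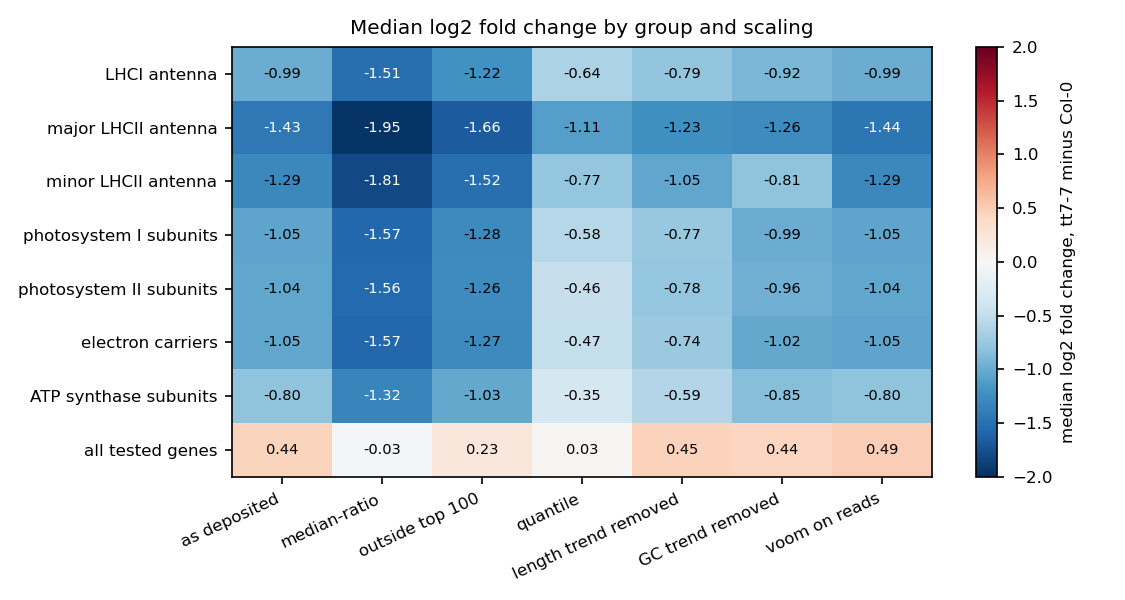
Median log2 fold change (tt7-7 minus Col-0) of each complex and of all tested genes under the deposited scale and 6 other settings, as colour and printed value. The medians of the 7 complexes are below 0 under each setting shown, and major LHCII is the lowest in every column.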

How the data were processed

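The authors deposited 1 table of RPKM values with decimal commas for 16967 genes in 6 samples. Per the submitters' processing notes, cutadapt, FastQC, HISAT2, HTSeq and DESeq2 and the build TAIR10 were used, with no versions or roles given. Per the labels' protocols, total seed RNA was treated with DNase and made into Illumina libraries. Genes of the table exceeded 2 RPKM throughout at least 1 genotype. The table held no counts, so reads were recovered from the RPKM steps with RefSeq transcript lengths, and came out whole within 0.02 for 16855 genes (99.3%).

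The main test was limma 3.58.1 (R 4.3.3) on log2(RPKM + 1) with a trended prior and no covariate, two-sided, with Benjamini-Hochberg adjustment over 16663 genes with a mean of at least 2 RPKM, leaving out 304, and a threshold of 0.05. Fold changes on this scale understate changes of low genes. The fit was tested on simulated data in which few genes changed, which does not show how it performs where most genes are called, as here. No 2 libraries of a genotype agreed within sampling noise (chi-square per degree of freedom of 22.5 or more). Exact permutation tests were two-sided over samples. Python 3.11.15 with pandas 2.3.3 and scipy 1.17.1 was used for the remaining steps.

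Genes printed with values in every sample were, in each complex, the one with the highest mean RPKM and those with the lowest and highest log2 fold change, and both members of each paralog pair. Of other lists, up to 4 genes past the threshold were named in order of p, with exceptions stated. The genes and all lists were chosen with earlier results of these data known. Other settings were pseudocounts of 0.1 and 0.5, no filter on low values, a 10 RPKM minimum for the mean, median-ratio scaling, scaling outside the 100 highest genes, quantile normalization, removed length or GC trends, a prior without trend, voom on recovered reads, replicate number as a blocking term, and leaving out each sample. Sequences, locations and transcript lengths came from RefSeq TAIR10.1, matched by locus identifier.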

Additional observations from a re-analysis of the deposited data

How the results depend on the processing

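The calls of the set changed little except under quantile normalization, where 29 genes were called lower. With one sample left out, members called lower numbered 44 to 49, members called higher 0 each time, and the median change of members was -1.23 to -0.95. Their median was -1.59 under median-ratio scaling, -0.60 under quantile normalization and -0.80 with the length trend removed. In the order LHCI antenna, major LHCII antenna, minor LHCII antenna, photosystem I subunits, photosystem II subunits, electron carriers and ATP synthase subunits, the medians were -1.51, -1.95, -1.81, -1.57, -1.56, -1.57 and -1.32 with median-ratio scaling. By quantile normalization they were -0.64, -1.11, -0.77, -0.58, -0.46, -0.47 and -0.35. With one sample left out they ran from -1.13 to -0.83, -1.61 to -1.33, -1.33 to -1.21, -1.13 to -0.94, -1.13 to -0.92, -1.18 to -0.98 and -0.96 to -0.71. Scaling outside the 100 highest genes gave -1.66 for major LHCII, -1.26 for photosystem II and -1.27 for the carriers. Removing the length trend gave -0.78 for photosystem II and -0.74 for the carriers, and removing the GC trend -0.81 for minor LHCII.

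Other genes of the pathway called lower numbered 10 with the length trend removed, 48 under median-ratio scaling, 43 with scaling outside the 100 highest genes and 13 to 31 with one sample left out. The lowest of these, 13, came when Col-0 replicate 3 was left out and again when tt7-7 replicate 1 was. Leaving out tt7-7 replicate 2 gave 14, and leaving out Col-0 replicate 2 gave 17. Over all tested genes 6.85% were called lower with the length trend removed, 27.6% under median-ratio scaling and 14.9% with scaling outside the 100 highest genes. With one sample left out the share was 6.03% to 8.90%. Other genes of the pathway called higher numbered 12 with the length trend removed, 1 with median-ratio scaling and 1 with quantile normalization. With one sample left out they numbered 4 to 8. The shares of all tested genes called higher were 53.2%, 26.3%, 26.7% and 43.8% to 54.6%, in the same order. The median change of other genes of the pathway was -0.90 under median-ratio scaling and -0.43 to -0.24 with one sample left out. The median of the assembly list was 0.076 with the length trend removed. PSA2 was at -0.46, LPA1 at -0.13 and CCDA at -0.038 under median-ratio scaling, and LPA1 at -0.16 and CCB4 at -0.32 under quantile normalization.

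Paralog balance changed under quantile normalization to 0.25 for PSBO1/PSBO2, -0.28 for LHCB4.3/LHCB4.1 and -0.64 for PETE1/PETE2, and with the GC trend removed to -0.28 for LHCB2.1/LHCB2.2 and 0.0027 for LHCB4.3/LHCB4.1. With one sample left out it ran from -0.66 to -0.38 for PSAD-1/PSAD-2, -0.16 to 0.037 for PSAE-1/PSAE-2, 0.19 to 0.43 for PSAH-1/PSAH-2, -0.23 to -0.17 for PSBO1/PSBO2, 0.021 to 0.14 for PSBQ-1/PSBQ-2, -0.080 to 0.029 for LHCB2.1/LHCB2.2, 0.19 to 0.40 for LHCB4.1/LHCB4.2, 0.19 to 0.45 for LHCB4.3/LHCB4.1, -0.14 to 0.055 for PETE1/PETE2 and 0.030 to 0.27 for FNR1/FNR2. The causes of these differences were not tested.

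The replicate numbers were not taken to pair samples: deviations of same-numbered samples from their group means correlated at 0.21, -0.19 and 0.48 across genes. With the replicate number as a block, 48 genes of the set were called lower. For LHCB1.4, coefficients of variation of 59.6% in tt7-7 and 63.5% in Col-0 limited the test.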
